A study of Homo sapiens with 2 samples.

Results

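The genes of 4 long noncoding RNAs (lncRNAs) that many human cells make in large amounts, MALAT1, NEAT1, TUG1 and NORAD, were examined for peaks of MYBL2 in chromatin of A673 cells. The genes were chosen by name, with earlier results of these data known and with no measured value in the rule, out of 38690 protein-coding and lncRNA genes of the annotation used (GENCODE v44 lifted to GRCh37). A peak was assigned to a gene when it overlapped the gene body or the 1000 bp on either side of any annotated transcription start site (TSS) of that gene. By this rule the 4 genes held 19 of the 66954 peaks in the list. The study performed chromatin immunoprecipitation followed by sequencing (ChIP-seq) on A673, an established Ewing sarcoma cell line, in its wild-type state, with no treatment named in the labels. For MYBL2, 1 ChIP library was made, and 1 library of input chromatin that had not gone through the antibody step served as its control. Neither group had a replicate, so no test between ChIP and input that includes the spread between replicates was possible. The labels name MYBL2 as the target of the antibody, whereas the methods name phosphorylated, that is activated, MYBL2. RNA was not measured in these libraries, so whether the 4 RNAs were abundant in these cells was not tested, and the labelled cell type could not be checked against marker expression.

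MYBL2 (B-MYB) is a DNA-binding transcription factor that joins the MuvB complex at promoters of genes used late in the cell cycle, many of which carry a short element called the cell cycle genes homology region (CHR). MALAT1 RNA resides in nuclear speckles, where splicing factors are stored, and NEAT1 RNA forms the scaffold of paraspeckles. The NEAT1 gene gives a short transcript and a long one from the same start, and the long one is required for paraspeckles to form. Both MALAT1 and the long NEAT1 transcript lack a poly(A) tail and end in a triple helix after cleavage by RNase P. TUG1 is found in both the nucleus and the cytoplasm, and NORAD is a cytoplasmic RNA that helps to keep the genome stable.

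The promoters of the 4 genes are shown because each gene had a peak there. Each sequence covers the 250 bases before and the 50 bases from the annotated canonical start, 5′ to 3′ on the strand of the gene, as read from the GRCh37 genome (the hg19 coordinates of the peak list). Capitals mark matches, on either strand, to any of 5 short motifs. The CHR was searched as TTTGAA. For MYB proteins the letters CAACNG were searched, with TAACNG as their other accepted form. The motif of the factor NF-Y was searched as CCAAT and that of ETS factors as CCGGAAGT. For E2F factors TTTCCCGC was searched, with TTTGGCGC as the other accepted form. None of these motifs contains another.
MALAT1 promoter, chr11:65264861-65265160, plus strand: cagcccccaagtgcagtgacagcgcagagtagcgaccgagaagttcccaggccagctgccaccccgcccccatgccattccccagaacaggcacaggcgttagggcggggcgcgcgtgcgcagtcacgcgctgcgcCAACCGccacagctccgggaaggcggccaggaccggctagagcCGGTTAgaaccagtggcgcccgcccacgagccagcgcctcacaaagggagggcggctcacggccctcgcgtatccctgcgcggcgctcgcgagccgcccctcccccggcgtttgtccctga
NEAT1 promoter, chr11:65190019-65190318, plus strand: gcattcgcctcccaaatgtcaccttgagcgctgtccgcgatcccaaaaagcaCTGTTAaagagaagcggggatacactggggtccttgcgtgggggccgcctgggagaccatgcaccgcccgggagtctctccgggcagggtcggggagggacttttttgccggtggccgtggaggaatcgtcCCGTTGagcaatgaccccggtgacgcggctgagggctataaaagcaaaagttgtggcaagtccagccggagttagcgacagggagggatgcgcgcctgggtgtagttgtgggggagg
TUG1 promoter, chr22:31365001-31365300, plus strand: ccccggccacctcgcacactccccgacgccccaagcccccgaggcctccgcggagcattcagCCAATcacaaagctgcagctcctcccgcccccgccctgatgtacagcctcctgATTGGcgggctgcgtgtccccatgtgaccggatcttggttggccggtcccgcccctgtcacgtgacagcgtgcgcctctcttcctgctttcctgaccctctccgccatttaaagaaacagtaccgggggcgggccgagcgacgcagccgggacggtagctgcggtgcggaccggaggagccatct
NORAD promoter, chr20:34638891-34639190, minus strand: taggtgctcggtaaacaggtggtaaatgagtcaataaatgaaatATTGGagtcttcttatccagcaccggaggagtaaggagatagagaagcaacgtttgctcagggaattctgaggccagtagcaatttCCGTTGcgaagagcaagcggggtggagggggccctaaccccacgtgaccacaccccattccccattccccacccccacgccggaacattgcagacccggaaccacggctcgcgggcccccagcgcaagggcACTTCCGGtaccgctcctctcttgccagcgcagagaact
The strongest summits of NEAT1, TUG1 and NORAD lie inside these windows, whereas the MALAT1 summit lies further downstream.

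All 4 genes had a peak, and all 4 had a peak in a TSS window. Among all genes a peak was found by the same rule at 29.7% of lncRNA genes, at 65.4% of protein-coding genes and at 44.7% of the genes whose length lay within the range of the 4 (5401 to 22767 bp). A peak in a TSS window was found at 22.9% of lncRNA genes and 59.4% of protein-coding genes. The 4 genes differed in how far the peaks reached. Peaks covered 100% of the MALAT1 body (10434 bp) and 87.7% of NEAT1 (19975 of 22767 bp), but 11.8% of TUG1 (1201 of 10151 bp) and 6.00% of NORAD (324 of 5401 bp). Of the 10884 genes in this range of length, the median had 0% of its body covered, the 90th percentile stood at 15.5% and the 99th at 75.1%. TUG1 and NORAD thus lay below the 90th percentile and MALAT1 and NEAT1 above the 99th.

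**Figure D1:**
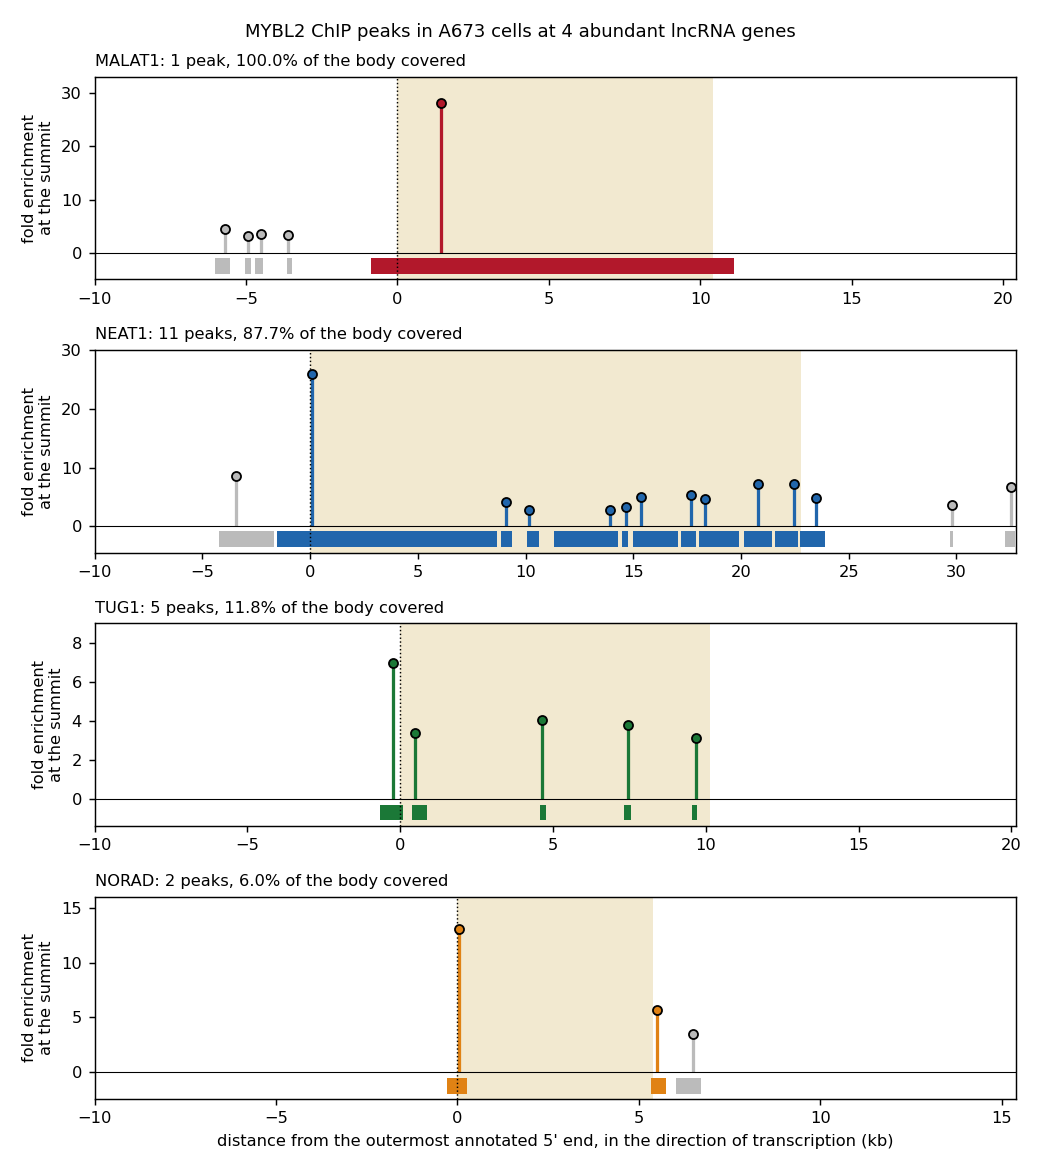
Maps of the 4 genes, with position in kb from the annotated 5′ end on the horizontal axis and fold enrichment at the summit on the vertical axis; the shaded span is the gene body, each bar on the baseline is the extent of 1 peak, each stem stands at its summit, and grey marks peaks assigned to other positions within 10 kb. A single peak spans MALAT1, 11 peaks follow one another along NEAT1, and the peaks of TUG1 and NORAD are short and leave most of each gene body uncovered.

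MALAT1 (ENSG00000251562, chr11:65265111-65275544, plus strand) was covered from end to end by 1 peak of 12003 bp, chr11:65264236-65276238. The peak began 875 bp upstream of the annotated 5′ end and ended 694 bp past the 3′ end, and it was the 20th widest of the 66954 peaks, whose median width was 319 bp. Its summit, at chr11:65266553, lay 1442 bp inside the gene and 2 bp upstream of the nearest of the 40 annotated start sites. These start sites are spread from 65265111 to 65272173, so a nearby start carries less information than in a gene with few of them. The summit lies in the single exon of the canonical transcript. It is also close to the start of a shorter annotated transcript, which runs from 65266513 to 65272923.

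The pileup, the number of overlapping ChIP fragments at the summit, was 225 at MALAT1, with a 95% exact Poisson interval of 197 to 256 that covers counting error only. The median pileup over all peaks was 20. Against a local background of 7.04 fragments, derived by the peak caller from the input, the fold enrichment was 28.1 (24.6 to 32.0) and the −log10 q 242. The caller adds 1 fragment to both the pileup and the background before it divides them, so each fold given here is lower than the plain ratio of the 2 values. The fold ranked 210th in the list, and 98.0% of all genes with a peak had a weaker strongest peak. The background at MALAT1 was 2.04 times the lowest value that the caller allowed (3.45 fragments), and 94.5% of all peaks had a lower one. The part of this raised local background in the called width was not tested.

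The sequence around the MALAT1 summit is shown because the highest signal of the locus was not at the outermost start site. It spans 50 bases on either side of the summit on the plus strand, and the capitals mark its only motif match, a CHR.
MALAT1 summit, chr11:65266503-65266603: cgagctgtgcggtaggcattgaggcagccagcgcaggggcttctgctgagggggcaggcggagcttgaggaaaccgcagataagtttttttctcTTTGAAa
The peak list gives 1 summit for each peak and no profile between the ends, so whether the 12003 bp held several local maxima could not be read from it.

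Coverage as complete as that of MALAT1 was uncommon. Of 6174 genes with a length within a factor of 1.5 of its own, 7 were covered as completely, among them TALAM1, the antisense lncRNA that lies within MALAT1. Of the 2768 lncRNA genes among them, 2 were. By a minimum of 90% of the body, 1 of the 4 genes (MALAT1) was called, beside 0.478% of all genes and 0.225% of lncRNA genes in the length range of the 4. Among genes of at least 10000 bp, 26 of 22490 reached that minimum, and 3 of these were lncRNA genes (MALAT1, HOXD-AS2 and SNHG4). The genes nearest to MALAT1 in coverage, by a like length and then by name among 6 ties at 100%, were CCND1, HOXD-AS2 and MYC, each spanned by 1 peak with a fold of 34.5, 18.2 and 22.3, respectively. CCND1 encodes cyclin D1, which drives cells out of G1 phase, and MYC encodes a growth-promoting transcription factor.

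The broad peak ended near the ends of MALAT1. Of the 10434 bp that followed the gene, 6.65% were covered, all of it by the overhang of the same peak. Of the equally long stretch upstream, 19.3% were covered by 5 peaks including the overhang. The other 4 upstream peaks lay 3492 to 5520 bp from the gene with folds of 3.11 to 4.49, all weaker than the MALAT1 summit. The antisense TALAM1 (8121 bp, minus strand) and the antisense ENSG00000270117 (610 bp) were both 100% covered by the MALAT1 peak. ChIP fragments carry no strand of transcription, so this peak cannot be divided between MALAT1 and its antisense genes.

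NEAT1 (ENSG00000245532, chr11:65190245-65213011, plus strand), 52099 bp upstream of MALAT1 on the same chromosome, held 11 peaks in a row, numbered 1 to 11 from 5′ to 3′. The strongest, chr11:65188726-65198900, was 10175 bp wide, the 32nd widest in the list, and began 1519 bp upstream of the gene. Of all 66954 peaks, 32 (0.0478%) were at least 10000 bp wide, so that this peak and that of MALAT1 both belong to this small group. Its summit, at chr11:65190313, lay 68 bp from the annotated 5′ end and 38 bp downstream of the nearest of 9 start sites. Here the pileup was 145 (122 to 171), the background 4.62 and the fold enrichment 26.0 (21.9 to 30.5), the 269th in the list. The fold interval overlaps that of MALAT1, so the strongest peaks of the 2 genes were not distinguishable in fold by counting error. The lncRNA gene ENSG00000290057 (417 bp, plus strand), just upstream of NEAT1, lay wholly within the same peak.

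The short transcript (3684 bp, chr11:65190245-65193928) lay wholly inside this first peak. Of the 19083 bp of the body downstream of the short transcript, 85.4% were covered, and of the 14111 bp beyond the end of the first peak, 80.2% were. With the body cut into 10 segments of equal length from 5′ to 3′, segments 1 to 3 were each 100% covered, segment 4 was 92.0% covered, segment 5 38.0%, segment 6 100% and segments 7 to 10 between 81.2% and 89.6%. The gaps between neighbouring peaks measured 102 to 707 bp. Coverage therefore continued along the part of the gene that only the long transcript uses, with its lowest value in segment 5.

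Beyond the first peak the pileup was lower. From 5′ to 3′, the pileups of the 10 later peaks were 28, 27, 36, 18, 34, 29, 30, 35, 32 and 22 fragments. The 95% Poisson intervals of these 10 pileups all overlapped, which does not show that the pileups were equal. The lower bound at the first peak (122) lay far above them. The folds of the same peaks were 4.16, 2.71, 2.82, 3.29, 5.02, 5.30, 4.70, 7.23, 7.13 and 4.77. Peaks 9 and 10, close to the 3′ end, thus had the highest folds of the 10, and peaks 3 and 4 the lowest.

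This order did not follow the ChIP pileup alone, because the local background varied over the gene. It was 5.97, 9.33, 12.1, 4.77, 5.97, 4.66, 5.60, 3.98, 3.63 and 3.82 fragments at the 10 later peaks in the same order. Peak 4, chr11:65201570-65204529, had the highest pileup of these 10 (36) together with the highest background, 3.51 times the floor, and 99.9% of all peaks had a lower background. At that background 25 fragments were needed to reach the lowest −log10 p in the list (3.20), against 11 at the floor. Whether the input-derived background lowered the number or extent of peaks called in the middle of NEAT1 was not tested.

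**Figure D2:**
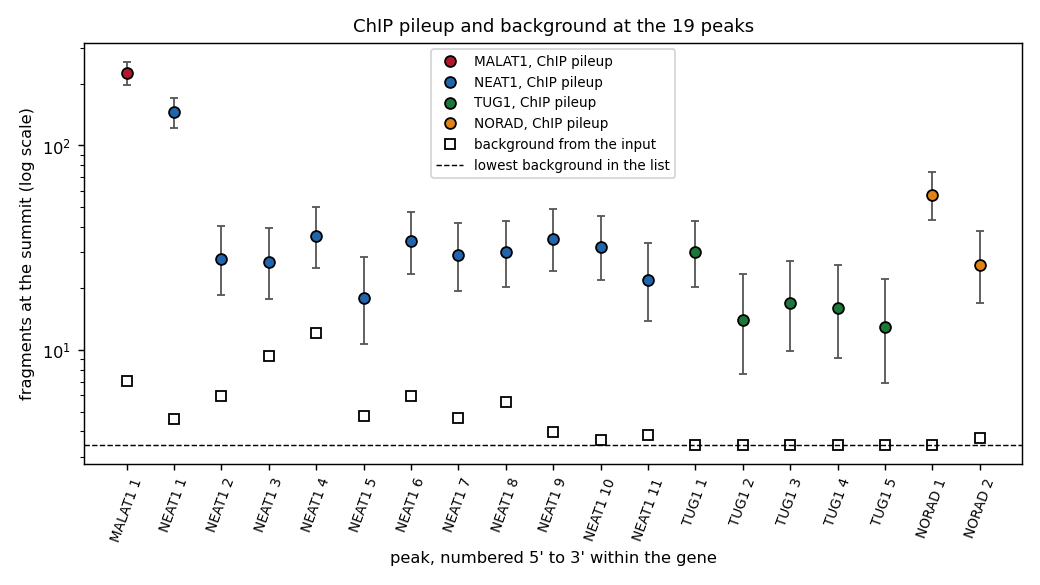
ChIP pileup (coloured points, bars for 95% Poisson intervals) and local background (open squares) at the summits of the 19 peaks, in fragments on a log scale, with the peaks of each gene in order along the horizontal axis and the lowest background in the list as a dashed line. The strongest peaks of MALAT1 and NEAT1 stand highest, the later NEAT1 peaks have pileups of 18 to 36 over backgrounds of 3.63 to 12.1, and the backgrounds of TUG1 and NORAD lie at or near the floor of 3.45.

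The sequences at 2 of these summits are shown because they have the highest background (peak 4) and the highest fold (peak 9) among the later NEAT1 peaks. Each spans 50 bases on either side of the summit on the plus strand. Capitals mark a CHR match in peak 4 and a MYB match in peak 9.
NEAT1 summit 4, chr11:65204125-65204225, fold 2.82: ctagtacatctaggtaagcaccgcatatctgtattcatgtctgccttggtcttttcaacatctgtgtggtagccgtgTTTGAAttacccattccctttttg
NEAT1 summit 9, chr11:65210968-65211068, fold 7.23: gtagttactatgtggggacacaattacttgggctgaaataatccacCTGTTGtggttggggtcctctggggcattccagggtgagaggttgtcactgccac
Summits 1 to 10 lay in the single exon of NEAT1. The last peak, chr11:65212979-65214130, reached into the body by only 33 bp and had its summit 702 bp past the 3′ end.

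Few genes of similar size were covered as far as NEAT1. Of 6673 genes with a length within a factor of 1.5 of its own, 13 were covered at least as much, including 1 of 2502 lncRNA genes. The 3 genes nearest in coverage were MDFI with 87.9%, CARHSP1 with 88.1% and TIPARP with 89.1%. They held 7, 10 and 14 peaks, respectively, with a strongest fold of 9.53, 14.8 and 15.1, below the 26.0 of NEAT1. Likeness here means length and coverage only.

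Coverage fell outside NEAT1 as well. In the 22767 bp downstream of the gene, 7.62% were covered by 3 peaks, and in the 22767 bp upstream, 4102 bp by 2 peaks. A separate upstream peak, chr11:65185999-65188581, ended 1663 bp before the gene with a fold of 8.62 and a pileup of 80. In the 52099 bp between NEAT1 and MALAT1, 12.7% of bases were covered by 11 peaks. The 10 summits in this interval had folds of 3.11 to 15.4 (median 4.63). The covered share of this interval was thus well below that of either gene beside it.

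TUG1 (ENSG00000253352, chr22:31365231-31375381, plus strand) held 5 separate peaks, 2 of them in TSS windows. The annotation lists the gene as protein-coding, although it is known mainly as a lncRNA. The strongest peak, chr22:31364560-31365322, had a pileup of 30 (20.2 to 42.8) and a fold of 6.96 (4.77 to 9.85). Its summit lay 226 bp upstream of the nearest TUG1 start, outside the body, and only 92 bp of the peak were inside the gene. On the other side of this promoter lies MORC2, a chromatin-compacting ATPase gene on the minus strand, with start sites as near as 471 bp to those of TUG1. The peak between them cannot be assigned to one gene alone.

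The other 4 TUG1 peaks were small and spread along the gene. They were 488, 215, 242 and 164 bp wide, with folds of 3.37, 4.04, 3.82 and 3.15 and pileups of 14, 17, 16 and 13 fragments from 5′ to 3′. Their intervals overlapped, so no order among them could be read beyond counting error. The median fold of all peaks was 3.79. The summit of peak 2 lay 129 bp upstream of a later TUG1 start, that of peak 3 in an intron of the canonical transcript that is an exon of another transcript, and those of peaks 4 and 5 in exons. The last summit lay 461 bp before the 3′ end. All 5 peaks had the lowest background the caller allowed, 3.45 fragments, at which 11 fragments were needed for a peak.

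Between the peaks of TUG1 were uncovered stretches of up to 3680 bp, and 6 of 10 equal segments of the body had no covered base. Of 6136 genes of like length, 846 were covered at least as much, and 40.1% of all genes with a peak had a weaker strongest peak. The summit of TUG1 peak 3 is shown because it holds the only CCAAT match among the 19 summit windows, in capitals (ATTGG, its reverse complement).
TUG1 summit 3, chr22:31369822-31369922, plus strand: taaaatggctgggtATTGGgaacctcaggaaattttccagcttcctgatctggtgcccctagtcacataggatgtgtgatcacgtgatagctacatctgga
The antisense lncRNA ENSG00000269987 overlaps peaks 4 and 5 and was 12.4% covered, while ENSG00000269972, also antisense within TUG1, was 0% covered. The genes nearest to TUG1 in length and coverage were MYADM, MSANTD7 and TIGD6, each covered to 11.8%, with a strongest fold of 5.62, 7.24 and 9.38.

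NORAD (ENSG00000260032, chr20:34633540-34638940, minus strand) had 1 peak at each end of its single exon and none between. The promoter peak, chr20:34638674-34639237, was 564 bp wide with a pileup of 57 (43.2 to 73.9), a background at the floor and a fold of 13.03 (9.92 to 16.8), the 2204th in the list. Its summit lay 41 bp downstream of the only annotated start. The second peak, chr20:34633182-34633596, overlapped the gene by 57 bp and had its summit 93 bp past the 3′ end, with a fold of 5.71 (3.80 to 8.26) and a pileup of 26 (17.0 to 38.1). The promoter peak was the stronger of the pair, and the intervals of the 2 folds did not overlap.

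The 5077 bp between both peaks, 94.0% of the gene, carried no peak, and 8 of 10 equal segments of the body had no covered base. Of 5248 genes of like length, 1315 were covered at least as much, although 81.0% of all genes with a peak had a weaker strongest peak than NORAD. A high promoter fold and a nearly uncovered body thus stood together in this gene. A further peak of 693 bp lay 620 bp past the 3′ end with a fold of 3.45. On the other side of the promoter starts the divergent lncRNA ENSG00000234139, 473 bp away on the plus strand. The sequence at the 3′ end summit is shown because it lies outside the gene and holds none of the 5 motifs.
NORAD summit 2, chr20:34633397-34633497, minus strand: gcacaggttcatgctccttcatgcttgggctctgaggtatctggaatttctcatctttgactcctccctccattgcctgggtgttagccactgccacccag
The genes nearest to NORAD in length and coverage were ZBED9-AS1 with 6.00%, NRBP2 with 5.99% and PPM1M with 6.01%, whose strongest folds of 4.04, 7.71 and 3.82 were all below that of NORAD.

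Ordered by the fold of the strongest peak, MALAT1 (28.1) and NEAT1 (26.0) came before NORAD (13.03) and TUG1 (6.96). The neighbours MALAT1 and NEAT1 had overlapping intervals. NEAT1 lay above NORAD without overlap, and NORAD (lower bound 9.92) lay just above TUG1 (upper bound 9.85). A fold of at least 5 was reached by the strongest peak of all 4 genes, beside 37.3% of all genes, and a fold of at least 10 by 3 of the 4, beside 16.8% of all genes. Among genes with a peak the median strongest fold was 8.03, which TUG1 alone of the 4 did not reach.

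**Figure D3:**
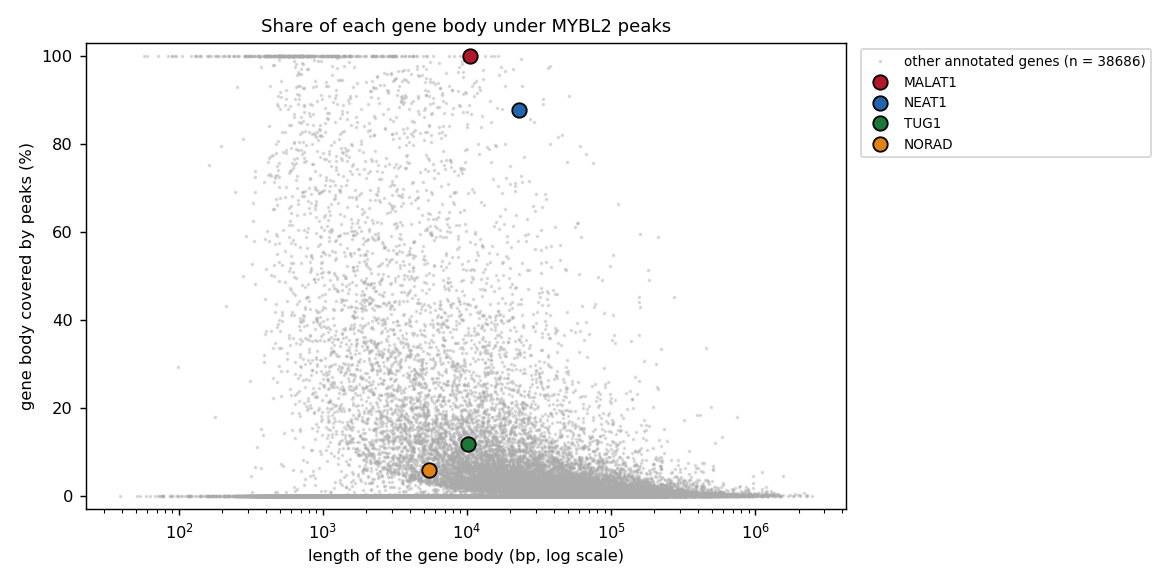
Share of the gene body covered by peaks (percent) against gene length (bp, log scale) for all protein-coding and lncRNA genes with the 4 genes marked. MALAT1 (100%) and NEAT1 (87.7%) lie near the top, where few genes of their length are found, and TUG1 (11.8%) and NORAD (6.00%) lie among the many genes with low coverage.

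The order by coverage was not the order by fold, since NORAD had the lower coverage and the higher fold when set against TUG1. With only peaks of a fold of at least 5 counted, coverage was 0.906% in TUG1 and stayed at 6.00% in NORAD, so the order of these 2 genes by coverage turned. Over the 19 peaks the median width was 706 bp and the median fold 4.77, beside 319 bp and 3.79 for all other peaks. A fold of at least 5 was given for 9 of the 19 peaks (47.4%), beside 24.0% of all other peaks. These 19 peaks are not independent, since 11 of them come from NEAT1 and 12 from 2 neighbouring genes of chromosome 11. Local background set the genes apart in the same pairs as coverage. Of the 12 peaks of NEAT1 and MALAT1, 9 had a background above the median of all peaks (4.25), and of the 7 peaks of TUG1 and NORAD, 0 did. Whether background and coverage were linked was not tested.

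**Figure D4:**
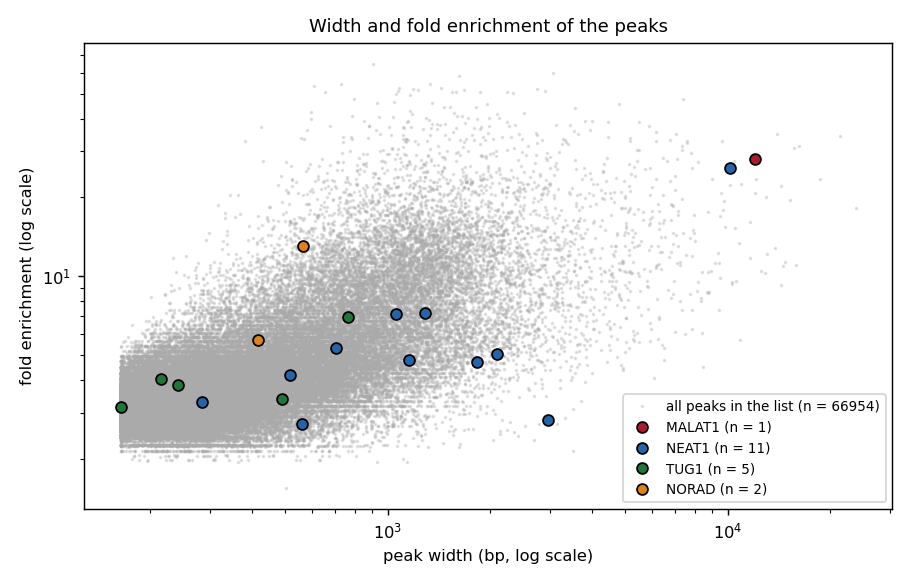
Fold enrichment at the summit against peak width (bp), both on log scales, for all 66954 peaks in grey and the 19 peaks of the 4 genes in colour. The MALAT1 peak (12003 bp, fold 28.1) and the first NEAT1 peak (10175 bp, fold 26.0) lie at the upper right. The other peaks of the 4 genes have widths of 164 to 2960 bp and folds of 2.71 to 13.03.

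The summits were set against the gene structure. Of the 19 summits, 16 lay inside a gene body, each in an exon of at least 1 transcript, and 3 lay outside, namely the promoter summit of TUG1 and the 3′ end summits of NEAT1 and NORAD. MALAT1, NEAT1 and NORAD have 1 exon in their canonical transcript, so an exonic position there carries no more information than a position in the body. TUG1 has 3 canonical exons.

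The sequence content of the covered and uncovered parts differed in each gene that had both. In NEAT1 the covered bases had 44.9% GC and the uncovered 38.3%. The corresponding values were 49.8% and 41.0% in TUG1 and 61.7% and 40.5% in NORAD. The fully covered MALAT1 body had 42.0% GC. The promoter windows had an observed-to-expected CpG ratio of 0.893 in MALAT1, 0.840 in TUG1, 0.796 in NEAT1 and 0.699 in NORAD, all above the median of 0.5185 over the promoters of all 38690 genes. GC content near the summits ranged from 25.7% to 77.2%.

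Motif matches were counted in the 101 bases around each summit. A CHR occurred at 4 of the 19 summits (the MALAT1 summit and those of peaks 2, 4 and 8 of NEAT1), beside 9.28% of all summits. A MYB motif occurred at 5 of 19, beside 20.9%, a CCAAT at 1, beside 13.03%, an ETS motif at 1, beside 0.705%, and an E2F motif at 0, beside 0.361%. The ETS match was that of the NORAD promoter, printed in capitals above as ACTTCCGG. No motif of the 5 was found at 9 of the 19 summits, including the strongest summits of NEAT1 and TUG1. Over the whole gene bodies the CHR had 1.34 matches per kb in MALAT1 and 0.922 in NEAT1. It had 1.97 per kb in TUG1 and 1.11 in NORAD, although no summit window of either gene held one. Whether the summits held more CHR matches than the rest of these bodies was not tested. In the promoter windows a CHR was found in 0 of 4 (15.5% of all promoters), a MYB motif in 3 (45.6%), CCAAT in 2 (35.6%), ETS in 1 (3.99%) and E2F in 0 (2.11%). With 4 genes and 19 partly neighbouring peaks these counts are a description of the letters in these windows.

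Genes whose products work with NEAT1 or MALAT1 were listed from general knowledge, with earlier results of these data known, and examined in the same way. All 13 genes for paraspeckle proteins, which assemble on NEAT1, had a peak in a TSS window, from a strongest fold of 4.47 at NUDT21 to 27.6 at SFPQ (median 14.4). Coverage of their bodies ranged from 3.21% at PSPC1 to 97.4% at SFPQ, both core paraspeckle proteins, with a median of 37.9%. All 12 genes for RNase P subunits, for RNase Z and for the triple-helix binder METTL16 had such a peak, from 7.41 at RPP25 to 29.2 at POP7 (median 10.1). Coverage of the bodies of these 12 genes ranged from 0.259% to 67.6% (median 6.15%). The shares with a TSS window peak stand beside the 59.4% of protein-coding genes given above. Median coverage was 0.880% over all protein-coding genes and 2.73% over those with a peak. These comparison genes were not matched to the lists for length.

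The same rule was applied to 13 other known lncRNA genes, for comparison with the 4. A peak in a TSS window was found at 10 of them, from a fold of 5.39 at MEG3 to 23.2 at OIP5-AS1 (median 9.54), and none was found at CYTOR, H19 and MIAT. MIAT had 2 peaks in its body, so 11 of the 13 had a peak by the full rule. The strongest folds of MALAT1 and NEAT1, both in TSS windows, exceeded the highest promoter fold in this list, whereas those of NORAD and TUG1 lay within its range. Median coverage in this list was 2.77% of the body. TERC, the 541 bp gene of the telomerase RNA, was the only one covered to 100%, and DANCR (11299 bp) came next with 59.5%. NORAD (6.00%) and TUG1 (11.8%) were thus nearer to the median of these lncRNA genes than MALAT1 and NEAT1 were.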

How the data were processed

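ChIP-seq was performed on A673 cells, with 1 MYBL2 ChIP library and 1 input library. The authors aligned the reads to hg19 (Bowtie2 version 2.1.10) and called narrow peaks against the input (MACS2 version 2.0.10), with versions as in the submitters' processing notes. How the list was then cleaned is not given in the sources used here. The peak names are numbered up to 66964, and 10 of these numbers are absent, 0 of them among or next to the peaks within 10 kb of the 4 genes. Each deposited line holds the peak position, a score (10 times the −log10 q, decimals removed), the fold enrichment as a linear ratio (pileup plus 1 over background plus 1), and the −log10 p, −log10 q and summit offset computed by the authors. These values compare 2 libraries and include no spread between replicates. The largest q was 0.0493.

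Genes were taken from GENCODE v44 lifted to GRCh37, and coordinates are 1-based. The whole-number pileup and the local background of each peak were solved from the deposited fold and −log10 p under the Poisson model of MACS2. The largest misfit was 3.49e-05, and any other whole number missed by 0.0380 or more. The lowest background corresponds to a ChIP depth of about 5.68e+07 reads, assuming the default MACS2 genome size and a fragment of 164 bp, the narrowest width. Exact Poisson intervals (95%) cover counting error only, with the background held fixed. Calculations were tested on simulated data, with Python 3.11.15, numpy 2.4.6, pandas 2.3.3, scipy 1.17.1 and matplotlib 3.10.9.

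The 4 genes and all gene lists were chosen with earlier results of these data known. Named were the 4 genes, the strongest and weakest genes of each list and those without a peak, the 3 genes nearest to each of the 4 in coverage, and genes that overlap them. Coverage of PSPC1, SFPQ, TERC and DANCR and the long covered lncRNA genes were named after their values were seen. The result of 1 further gene list is not reported here. Alternatives changed the peak threshold, the overlap rule, the TSS window, the merging of peaks and the transcript used.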

Additional observations from a re-analysis of the deposited data

How the results depend on the processing

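All 4 genes kept at least 1 peak under each alternative tried, and the strongest fold of each gene was the same in all of its alternatives. These folds could not move, since the strongest peak of each gene lies in a TSS window that all of those alternatives keep. Merging peaks within 100 bp could not act either. The smallest gap between peaks was 102 bp in NEAT1, 298 bp in TUG1 and 5077 bp in NORAD. Of 63 alternative values, 54 moved by less than the interval or factor used and 9 by more. The 54 include the values that could not move, so their number is no measure of robustness. For coverage the interval was an exact binomial one (95%) over the bases of the body, and for peak counts the factor was 1.5. Neighbouring bases are not independent, so the coverage interval served only as a tolerance and measures no experimental spread. With only peaks of −log10 q of at least 5, NEAT1 coverage was 84.0% and TUG1 coverage 3.02% with 2 peaks. With only peaks of fold enrichment of at least 5, NEAT1 coverage was 60.6% with 5 peaks and TUG1 coverage 0.906% with 1 peak. NORAD had 1 peak when the summit, or when at least 50% of the peak, had to lie inside the gene or TSS window. MALAT1 values moved under none of the alternatives. None of these could move them, since its 1 peak spans the whole body and lies far above both thresholds. The order of coverage of TUG1 and NORAD therefore depends on the threshold. No paired analysis was possible because neither library has a replicate. No replicate exists, so the spread between cultures is unknown, and RNA levels were not measured here.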
